A study of Mus musculus with 3 samples.

Results

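The genes described here encode the DAZ-family proteins Dazl and Boll, the cytoplasmic polyadenylation element binding proteins Cpeb1, Cpeb2, Cpeb3 and Cpeb4, and the poly(A)-binding protein Pabpc1. They were chosen by symbol from a table of assembled transcript models in mouse testis, and they are 7 of its 23135 gene symbols, with 20 of its 50081 models. The series held 3 libraries, 1 per group, all from wild-type C57BL/6J testes: CAGE of capped 5′ ends at 10.5 days post partum (dpp), CAGE in adults, whose age is not given as a number, and PAS-Seq of polyadenylated 3′ ends in adults. By its title, the study dealt with an ancient transcription factor in early meiosis. The table has 1 model per line for the series as a whole, with no count per library, so the 10.5 dpp and adult testis cannot be compared, the depth is unknown and no value has replicates. Every count below is a description of this table, with no test.

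DAZ and CPEB proteins act on messenger RNAs that germ cells make early and translate later. They bind sequences in the 3′ untranslated region: DAZ proteins bind U-rich sites and recruit poly(A)-binding protein, and CPEB1 binds the U-rich cytoplasmic polyadenylation element, from which poly(A) tail length and translation are controlled. Spermatogenesis relies on such delayed translation, because transcription stops as the sperm head condenses. Where the messages of the regulators themselves start and end decides which untranslated sequence each carries.

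Of the 20 models, 11 carried an identifier of the form given by the Cufflinks assembler together with a member's symbol, and 9 were RefSeq-derived. All 20 had the code NM in the table; what the codes mean is not stated. A code other than XX was found for all 7 members and for 62.3% of 22426 RefSeq genes, and for all 19 germ-cell, Sertoli and Leydig marker genes looked up. No marker of another tissue was looked up, so the 19 cannot tell testis from other tissues. The code is no measure of expression. Cufflinks-type models were present for 6 members, all but Dazl, against 28.5% of RefSeq genes.

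Every Cufflinks-type model of a member started apart from RefSeq, and fewer ended apart from it. All 11 started more than 50 nt from the nearest RefSeq start of the same gene, 9 of them upstream and 2, both of Cpeb4, downstream. They are not 11 separate starts: both Boll models shared a start, as did both Cpeb3 models and CUFF.3532.1 and CUFF.3532.2 of Cpeb4. The share of all Cufflinks-type models that start apart from RefSeq was not counted. A start upstream of the nearest RefSeq start was found in 6 of 6 members, against 37.9% of 6387 genes that had such a model, and a downstream start in 1 of 6, against 46.2%. The Boll start lay 103 nt upstream of its nearest RefSeq start but 659 nt downstream of that of NM_029267. With a tolerance of 200 nt, 5 members had an upstream start, Boll no longer among them, against 24.05% of genes. Ends went both ways. They lay downstream of the nearest RefSeq end in 2 of 6 members (Boll and Cpeb1; 27.1% of genes) and upstream in 3 of 6 (Cpeb2, Cpeb3 and Cpeb4; 49.4% of genes). The shares of members at the end are near the background and the numbers are small. Of 92 introns in the 11 models, 78 were RefSeq introns, and all 6 members had at least 1 that was not, against 59.0% of genes.

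**Figure D1:**
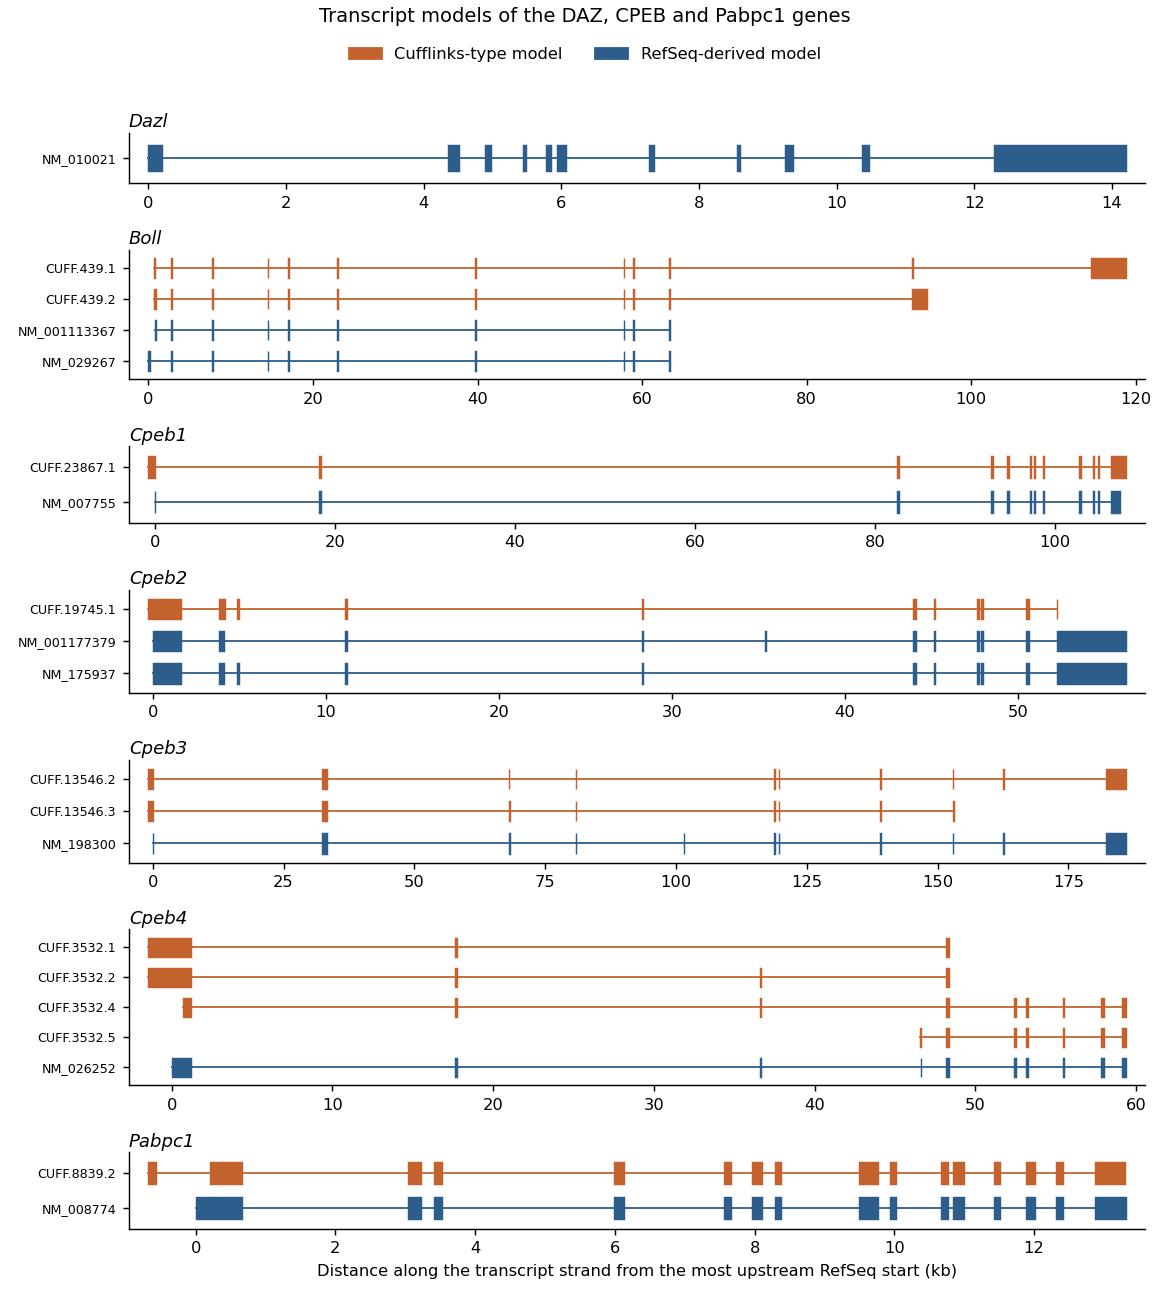
Exons (boxes) and introns (lines) of all 20 models, 1 panel per gene, against the distance in kb from the gene's most upstream RefSeq start along its strand; orange is Cufflinks-type and blue RefSeq-derived. The Boll models reach 55401 and 31207 nt past the RefSeq end, and the CUFF.3532.1 and CUFF.3532.2 models of Cpeb4 stop 10997 nt before it.

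The sequence before the RefSeq starts of Boll, Dazl and Cpeb4 is shown because Boll has several starts in the table, Dazl has the RefSeq start alone, and Cpeb4 has the start lying furthest upstream among the members. Each run is the 250 bases before a RefSeq start, from RefSeq on build GRCm38.p6, whereas the models are on mm9, so the starts of the models were not placed on them. The Boll windows lie 1025 bp apart, whereas the RefSeq-derived starts of Boll in the table lie 762 bp apart, so these windows are those of the later RefSeq annotation and at least 1 does not belong to a RefSeq-derived model described here. Promoter entries matched 5 of the 7 members, in 8 windows. Capitals mark AACNG, the core of the MYB-family binding motif, searched on both strands.
Dazl, chr17:50293621-50293870, minus strand: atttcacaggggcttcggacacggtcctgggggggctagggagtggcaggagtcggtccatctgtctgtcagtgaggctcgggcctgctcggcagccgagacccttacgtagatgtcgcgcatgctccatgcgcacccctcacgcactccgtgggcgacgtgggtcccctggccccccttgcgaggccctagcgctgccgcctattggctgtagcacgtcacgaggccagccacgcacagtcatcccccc
Boll, upstream window, chr1:55363754-55364003, minus strand: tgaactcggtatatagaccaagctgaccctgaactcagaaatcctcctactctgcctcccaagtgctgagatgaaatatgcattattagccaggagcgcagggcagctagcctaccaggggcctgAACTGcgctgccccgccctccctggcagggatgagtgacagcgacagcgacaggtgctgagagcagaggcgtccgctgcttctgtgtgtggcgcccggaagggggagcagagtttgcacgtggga
Boll, downstream window, chr1:55362729-55362978, minus strand: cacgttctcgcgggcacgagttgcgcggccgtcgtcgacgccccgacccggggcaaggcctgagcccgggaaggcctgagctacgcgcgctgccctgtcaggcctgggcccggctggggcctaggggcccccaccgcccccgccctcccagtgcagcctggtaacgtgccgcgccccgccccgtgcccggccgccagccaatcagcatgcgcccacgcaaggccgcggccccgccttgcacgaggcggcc
Cpeb4, chr11:31870690-31870939, plus strand: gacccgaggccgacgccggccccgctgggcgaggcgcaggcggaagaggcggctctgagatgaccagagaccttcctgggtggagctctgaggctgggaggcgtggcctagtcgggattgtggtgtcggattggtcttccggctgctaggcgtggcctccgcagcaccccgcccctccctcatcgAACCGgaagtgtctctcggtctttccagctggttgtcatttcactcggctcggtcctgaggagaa
AACNG matched once in the upstream Boll window, 125 bases before the start, and once in the Cpeb4 window, 65 bases before it. It did not match in the downstream Boll window or in the Dazl window. Of 32851 promoter windows of this length in the RefSeq table, 74.2% held at least 1 match. The GC-box letters CCGCCC matched 1 time in the upstream Boll window, 3 times in the downstream one, 1 time for Cpeb4 and 0 times for Dazl, against a match in 32.7% of all windows. Neither TATAAA (12.4% of windows) nor the cyclic AMP response element TGACGTCA (1.55%) matched in these 4 windows, on either strand. Over all 8 member windows, AACNG matched in 3, CCGCCC in 6, TATAAA in 1 and TGACGTCA in 0. The TATAAA match was in the Cpeb1 window, 30 bases before the start, but on the strand opposite to the transcript. That window also held 1 AACNG and 4 CCGCCC matches. The Boll downstream window was 78.0% GC, the upstream one 59.2%, Dazl 67.2% and Cpeb4 66.0%, against a median of 52.4% over all windows. A match or its absence describes these letters only.

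Dazl, which spermatogonia and spermatocytes need and which binds the 3′ untranslated regions of many germ-cell messages, had the simplest entry. Its single model, the RefSeq-derived NM_010021 (mm9 chr17:50418719-50432924, minus strand), had 11 exons and 2942 nt, of which the last exon made up 1918 nt or 65.2%. No Cufflinks-type model carried its symbol.

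Boll, the DAZ-family member closest to the ancestral gene and needed for sperm formation in the mouse, had the largest change of end among the members. The Cufflinks-type models CUFF.439.1 and CUFF.439.2 (mm9 chr1, minus strand, 55301512 to 55419654 and 55325706 to 55419654) spanned 118143 and 93949 bp, against 62639 and 63401 bp for the RefSeq-derived models NM_001113367 and NM_029267. Their ends lay 55401 and 31207 nt downstream of the single RefSeq end. The larger distance ranked 23 of 1728 genes with an end downstream of RefSeq, where the median was 1270 nt (quartiles 418 and 3322).

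The extension of Boll was spliced. Both Cufflinks-type models used a 5′ splice site 18 nt before the end of the RefSeq last exon, which turned that exon of 117 nt into an internal exon of 99 nt. An intron of 29421 bp, absent from RefSeq, followed in both. In CUFF.439.2 the transcript then ended in an exon of 1804 nt. CUFF.439.1 left the same exon after 136 nt and went across a further intron of 21565 bp to a last exon of 4297 nt. The last exon therefore made up 80.1% and 60.6% of the spliced length in CUFF.439.1 and CUFF.439.2, against 10.8% and 11.3% in NM_001113367 and NM_029267. The remaining internal exons, numbers 2 to 9, were those of RefSeq in both models.

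The 5′ end of Boll was also shared by the Cufflinks-type models and set apart from RefSeq. Both began at position 55419654, which is 103 nt upstream of the start of NM_001113367 and 659 nt downstream of that of NM_029267, so it lies between the RefSeq starts. CUFF.439.2 spliced its first exon of 329 nt at the site NM_001113367 uses. CUFF.439.1 had a first exon of 90 nt that lay between the first exons of NM_029267 and NM_001113367 and overlapped neither.

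Boll and Dazl can be laid side by side in the RefSeq-derived models. Counted from the start, exons 3 (92 nt in both) and 7 (72 nt in both) were equal in length between Boll NM_029267 and Dazl. The other 8 of the first 10 exons differed, among them exon 4 (55 nt in Boll, 52 nt in Dazl) and exon 8 (48 nt and 51 nt in the same order). Exon 10, also among them, was internal in Dazl, with 99 nt, and last in Boll NM_029267, with 117 nt. In both Cufflinks-type Boll models exon 10 was internal, with 99 nt.

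Cpeb1, the founding CPEB protein, needed in mouse germ cells for meiosis, was longer at both ends in its Cufflinks-type model. CUFF.23867.1 (mm9 chr7:88491663-88600267, minus strand) began 705 nt upstream of the start of NM_007755 and ended 666 nt downstream of its end. Its first exon measured 748 nt, against 43 nt in RefSeq, and its last exon 1663 nt, against 997 nt. The spliced length was 3968 nt, against 2612 nt. Both models had 12 exons, and 10 of the 11 introns were shared. The difference lay at exon 7, which was 90 nt in CUFF.23867.1 and 105 nt in NM_007755 through a 5′ splice site 15 nt earlier.

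**Figure D2:**
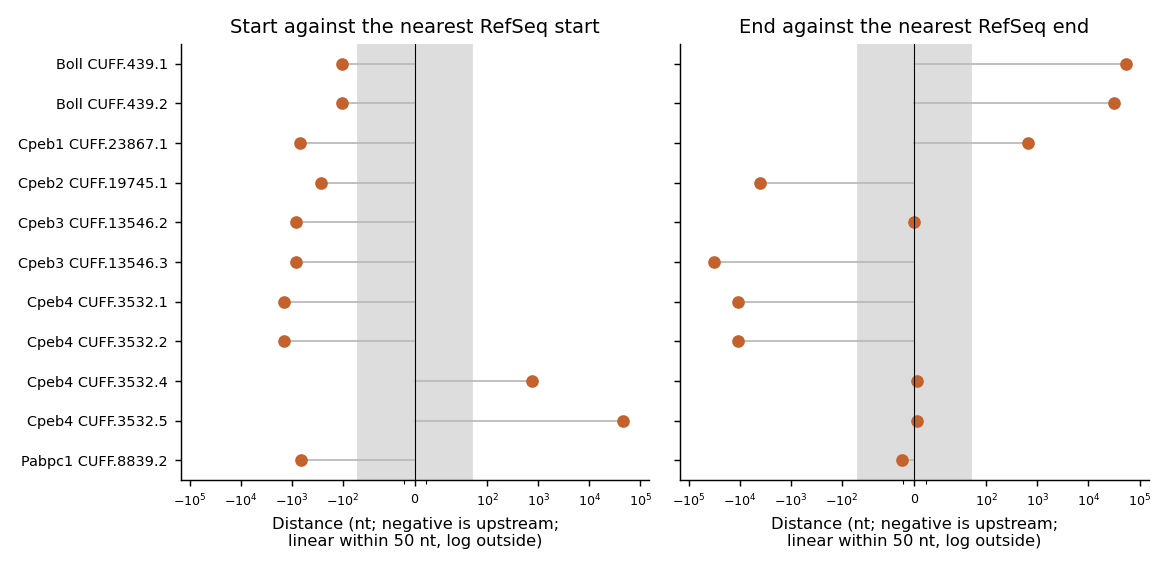
Distance in nt of the start (left) and end (right) of each Cufflinks-type model from the nearest RefSeq start or end of its gene, on an axis that is linear within 50 nt (grey band) and logarithmic outside, with negative values upstream. Starts leave the band in all 11 models, and 4 of the 11 ends stay in it.

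Cpeb2, Cpeb3 and Cpeb4, close relatives of each other, shared the lengths of a run of exons in the 3′ part of their transcripts. A run of 4 consecutive exons of 90, 119, 115 and 182 nt was in the RefSeq-derived models of these genes and of no other RefSeq gene in the table. Before that run each gene had, in at least 1 RefSeq-derived model, an internal exon of 24 nt, followed by an exon of 171 nt in Cpeb2, 168 nt in Cpeb3 and 174 nt in Cpeb4. An internal exon of 24 nt or shorter was found in 2.89% of all RefSeq genes, and in 3 of the 7 members. The search for the run and for short exons was chosen after the values were seen.

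The 24 nt exon was left out of every Cufflinks-type model that ran past it on both sides. This was so for 6 of 6 models: 1 of Cpeb2 (CUFF.19745.1), 2 of Cpeb3 (CUFF.13546.2 and CUFF.13546.3) and 3 of Cpeb4 (CUFF.3532.1, CUFF.3532.2 and CUFF.3532.4). For Cpeb2 this is also how 1 RefSeq-derived model, NM_175937, is built, while for Cpeb3 and Cpeb4 no RefSeq-derived model lacked it. Among 209 genes with a Cufflinks-type model on both sides of such a short exon, 28.2% had one skipped by every such model. Leaving out exons that some RefSeq model skips, the share was 18.1% of 171 genes, and both Cpeb3 and Cpeb4 were among them. The share of exons skipped in this way was 16.3% for exons up to 24 nt, 3.03% for 25 to 50 nt, 0.902% for 51 to 100 nt and 0.676% for longer exons up to 200 nt. Exon length therefore moves with skipping across the table, and its part in the result for the CPEB genes was not tested. A length of 24 nt is a multiple of 3, the size of a codon.

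**Figure D3:**
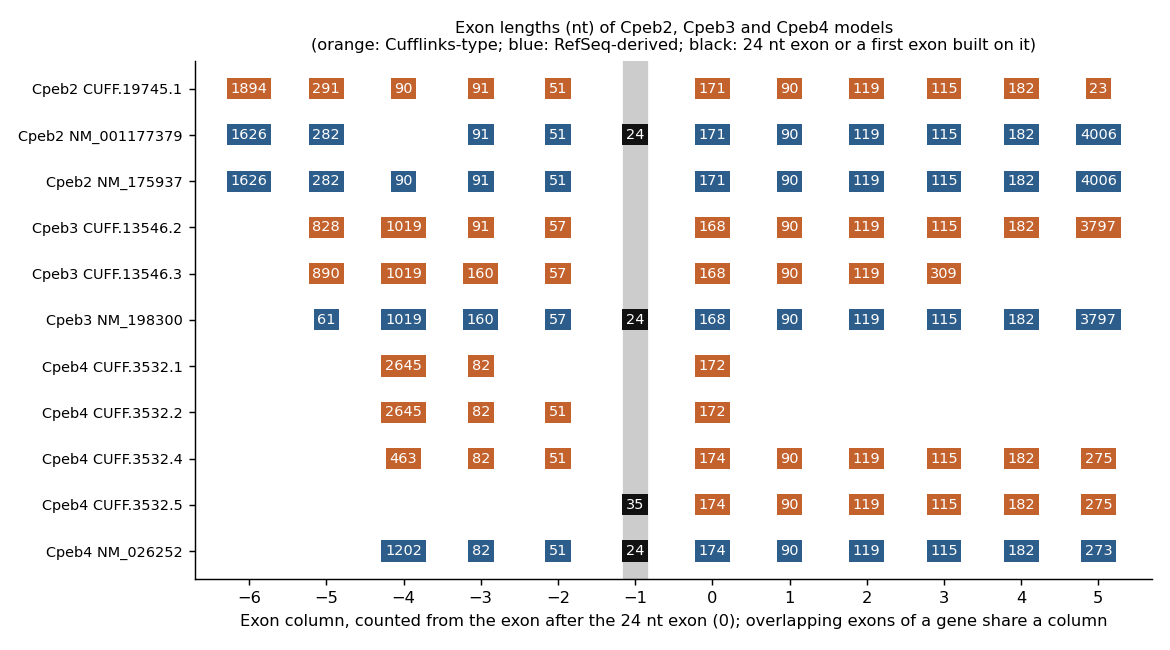
Exon lengths in nt of every Cpeb2, Cpeb3 and Cpeb4 model from 5′ (left) to 3′ (right), 1 row per model, with overlapping exons of a gene in 1 column. The grey column of the 24 nt exon is empty in the 6 Cufflinks-type models that pass it, and CUFF.3532.5 begins there with an exon of 35 nt.

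The other internal changes of the CPEB models also kept to steps of 3 nt. Exon edges inside the transcript moved in 3 places: exon 7 of Cpeb1 by 15 nt, exon 2 of Cpeb2 by 9 nt, to 291 nt in CUFF.19745.1 against 282 nt in RefSeq, and exon 3 of Cpeb3, which was 91 nt in CUFF.13546.2 against 160 nt in NM_198300, a loss of 69 nt. All 3 were multiples of 3 nt, against 45.5% of 1520 such edges in the table. Internal RefSeq exons were skipped in 4 places, the 24 nt exon in 3 genes and the 51 nt exon 3 of Cpeb4 in CUFF.3532.1. All 4 lengths were multiples of 3, against 61.5% of 1160 skipped exons. Since 7 changes in 4 related genes are not independent of each other, nothing further is read from these counts.

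The single Cufflinks-type model of Cpeb2 lacked nearly the whole RefSeq last exon, and whether that model is complete was not tested. CUFF.19745.1 (mm9 chr5:43624434-43676980, plus strand) ended 3983 nt upstream of the RefSeq end, 23 nt into a last exon that measured 4006 nt in NM_001177379 and NM_175937. Its spliced length was 3117 nt, against 6757 and 6823 nt. It began 268 nt upstream of RefSeq and held the 90 nt exon 3 that NM_175937 has and NM_001177379 lacks.

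Cpeb3 had a full-length and a shortened Cufflinks-type model. CUFF.13546.2 (mm9 chr19:37095781-37282612, minus strand) ended at the same base as NM_198300, with the same last exon of 3797 nt. CUFF.13546.3 ended 32775 nt upstream, where exon 9 of RefSeq was continued 194 nt past its 5′ splice site into the intron, giving a last exon of 309 nt in place of an internal exon of 115 nt. Both began 829 nt upstream of the RefSeq start. Their first exons measured 828 and 890 nt, against 61 nt in NM_198300. The 890 nt exon used the RefSeq splice site, and the 828 nt exon ended just before the RefSeq start, so that the RefSeq first exon was skipped.

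Cpeb4, which in Xenopus takes over from CPEB1 late in oocyte meiosis, had the most models, 4 Cufflinks-type and 1 RefSeq-derived, with 4 distinct starts and 3 distinct ends. CUFF.3532.1 and CUFF.3532.2 (mm9 chr11:31770768-31820580, plus strand) began 1443 nt upstream of the start of NM_026252, with a first exon of 2645 nt against 1202 nt. They ended 10997 nt upstream of its end, in exon 5 of RefSeq. That last exon of 172 nt stopped 2 nt before the splice site that closes the RefSeq exon of 174 nt. CUFF.3532.4 began 739 nt downstream of the RefSeq start, inside the first exon, and CUFF.3532.5 began 46579 nt downstream. The start of CUFF.3532.5 lay 11 nt before the 24 nt exon and its first exon of 35 nt ran to that exon's 5′ splice site. It was the only one of the 11 Cufflinks-type models whose introns were all in RefSeq. The intron chains of the other 10 differed from RefSeq, against 65.5% of 8176 multi-exon Cufflinks-type models over all RefSeq genes. Both CUFF.3532.4 and CUFF.3532.5 ended 2 nt from the RefSeq end.

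Pabpc1, the main cytoplasmic poly(A)-binding protein, had a Cufflinks-type model with an end near that of RefSeq and a start apart from it. CUFF.8839.2 (mm9 chr15:36525424-36539405, minus strand) ended 11 nt upstream of the end of NM_008774, with a last exon of 431 nt against 442 nt. It began 677 nt upstream of RefSeq with an added first exon of 116 nt, and an intron of 761 bp led to a site 200 nt inside the RefSeq first exon, which was 460 nt long in CUFF.8839.2 and 660 nt in NM_008774. The other 14 introns were shared. Pabpc1 has close copies elsewhere in the genome, and how reads were divided among copies is not given, so its models are uncertain to that extent.

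Last exons of the members ranged from among the shortest to among the longest in the table. In RefSeq-derived models they measured 4006 nt in Cpeb2 and 3797 nt in Cpeb3, longer than in 94.9% and 94.0% of RefSeq genes. Dazl followed with 1918 nt (74.96%) and Cpeb1 with 997 nt (51.8%). Pabpc1 with 442 nt (23.9%), Cpeb4 with 273 nt (13.5%) and Boll with 117 nt (4.12%) were in the lower part. The median of the 7 was 997 nt, against 961.5 nt over all 22426 RefSeq genes (quartiles 462 and 1919). That order turns with the background: the median was 1021 nt over genes with multi-exon models, to which all members belong, and 1086.5 nt over genes with a code other than XX. Members above the median were 4 of 7 over all RefSeq genes and 3 of 7 over either of the others. With the Cufflinks-type models counted, Boll had 4297 nt, longer than in 94.5% of genes, and Cpeb1 had 1663 nt. Members above the median of all RefSeq genes, then 1023 nt, were 5 of 7. Boll thus had the longest last exon among the members' Cufflinks-type models and the shortest among their RefSeq-derived models.

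**Figure D4:**
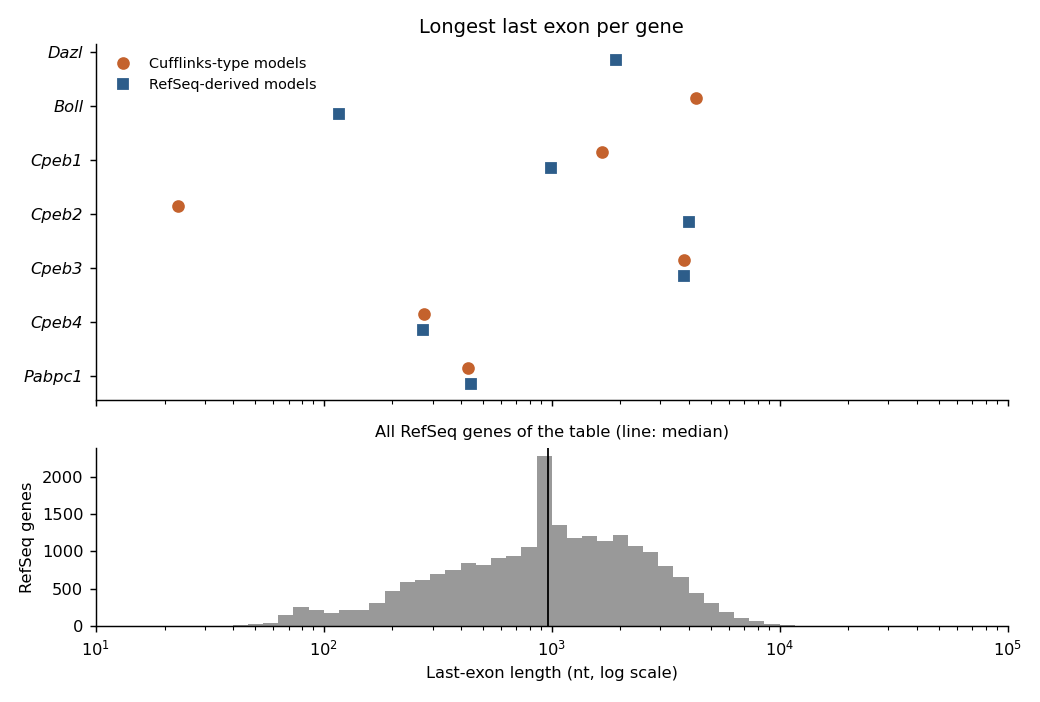
Longest last exon of each gene in nt on a log axis, in Cufflinks-type models (orange circles) and RefSeq-derived models (blue squares), above the histogram of all 22426 RefSeq genes with their median of 961.5 nt. Boll is at 4297 nt in Cufflinks-type models and 117 nt in RefSeq, Cpeb2 at 23 nt and 4006 nt in the same order, and Cpeb3, Cpeb4 and Pabpc1 nearly coincide.

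Other transcripts touched the starts of 3 CPEB genes. How many of all RefSeq genes have such an overlap was not counted, so this is not a trait particular to these genes. The single-exon model CUFF.23865.1, of 4120 nt with no symbol, ran on the other strand over the whole first exon of CUFF.23867.1 of Cpeb1 (748 bp). The noncoding RefSeq gene Gm7854 began on the other strand in the first intron of Cpeb2 and overlapped its first exon by 137 bp. March5, which encodes a ubiquitin ligase of mitochondria, faced Cpeb3 head to head, with its start 252 bp from that of NM_198300. Its exons overlapped the longer first exons of the Cufflinks-type Cpeb3 models by 360 bp. A start of another model within 500 bp upstream on the other strand was found for 1 of 7 members and for 11.3% of RefSeq genes. Downstream on the same strand, the single-exon model CUFF.8820.1 of 1080 nt, with no symbol, began 1207 nt past the end of Pabpc1. No other member had such a model within 10000 nt, and the share of all genes with one was not counted.

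The wider machinery was looked up in a list of 45 genes of cytoplasmic polyadenylation, deadenylation, poly(A) binding and translational repression. All 45 were in the table as RefSeq genes, and 40 had a code other than XX, against 62.3% of RefSeq genes. The 5 with XX alone were Pabpc5, Pabpc1l, Pabpc4l and Pabpn1l, relatives of the poly(A)-binding proteins, and Nanos2, an RNA-binding protein needed by spermatogonial stem cells. Cufflinks-type models were present for 22 of 45, against 28.5%. Of these 22, 8 had an end downstream of RefSeq (27.1% of genes) and 14 an end upstream (49.4%). The largest downstream distances among the genes named by rule were 5397 nt in Cnot6l, a deadenylase subunit, and 3575 nt in Papd5, a noncanonical poly(A) polymerase. The largest upstream distances were 31794 nt in Papd7 and 29698 nt in Papd4, the Gld-2 poly(A) polymerase that extends tails with CPEB1. Next came 9615 nt in Msi2, a Musashi RNA-binding protein, 9305 nt in Paip1, a partner of poly(A)-binding protein, 6556 nt in Cnot1, the deadenylase scaffold, and 3651 nt in Celf1, an RNA-binding protein. The downstream distance of Boll, 55401 nt, was above all of these.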

How the data were processed

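The authors deposited 1 table that serves all libraries, in BED layout with 12 columns and no header, holding assembled transcript models. Its deposited measurements are positions and exon numbers, in base pairs and counts of exons. The aligner TopHat2 2.0.4 and the build mm9 are named in the submitters' processing notes. How models were assembled, how CAGE and PAS-Seq reads entered and which filters were applied is not stated there or in the labels. The depth per library is unknown.

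Positions are counted from 1. Models were taken by symbol, and starts or ends within 50 nt counted as the same. A Cufflinks-type model was set against RefSeq-derived models of the same symbol, chromosome and strand, and distances run to the nearest RefSeq start or end, positive downstream. A gene's last exon is the longest over its RefSeq-derived models. Genes named are all members, list genes with the 8 largest end distances, list genes with XX alone and neighbours of members. The members and lists were chosen with earlier results of these data known. The calls were tested on simulated data. Python 3.11.15, numpy 2.4.6 and scipy 1.17.1 were used. Alternatives were other tolerances, definitions of the last exon, backgrounds, distances to neighbours and, added after the table was seen, limits on short exons.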

Additional observations from a re-analysis of the deposited data

How the results depend on the processing

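The counts of members with a start upstream (6), a start downstream (1), an end downstream (2) and an end upstream (3) stayed within 1 of these values with tolerances of 10 and 200 nt. The shares of all genes moved more. Upstream starts were 48.7% at 10 nt and 24.05% at 200 nt, downstream starts 44.2% at 200 nt, downstream ends 29.1% and 23.0%, and upstream ends 51.6% and 40.7%. The members' median last exon of 997 nt was above the median of all RefSeq genes and below that of multi-exon genes (1021 nt) and of genes with a code other than XX (1086.5 nt). It became 1918 nt with all models counted, because Boll and Cpeb1 have longer last exons there. With a limit of 15 nt for a short exon, 0 members had a skipped one, since theirs measure 24 nt, and at 30 nt the share of genes was 21.7%. Counts of neighbours did not change. No paired analysis was possible because the table holds no value per library, and for the same reason neither replicate error nor expression could be given.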
